A study of Mus musculus with 9 samples.

Results

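Gene expression in the substantia nigra of mice that received the toxin MPTP and ran voluntarily on a wheel was compared with that of saline-injected mice. Every gene with a mean of at least 0.5 FPKM (a level of expression corrected for transcript length and library depth) over the 9 libraries of the study was kept, which gave 15997 of the 55335 genes listed, in 6 of the 9 libraries. The running group received MPTP at 20 mg/kg by intraperitoneal injection, 2 injections a week over 5 weeks, and had a voluntary wheel for 2 months from the first injection. The vehicle group received saline on the same schedule of 2 injections a week over 5 weeks. The other group of the study, MPTP on that schedule with no running named in the labels, enters here through the shared estimate of the spread and for side-by-side values. Each group has 3 libraries. Toxin and wheel differ together between the groups compared, so their parts in any difference cannot be told apart. The labels count 3 mice in a group without saying that each library is 1 mouse, and they give no strain, age or sex, so a p-value measures the spread between these libraries.

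MPTP is converted in glia to a toxic metabolite that enters dopaminergic neurons through the dopamine transporter and blocks complex I of the respiratory chain, and it is widely used to model Parkinson disease. The substantia nigra holds dopaminergic neurons beside GABAergic neurons, and it lies close to thalamic, hypothalamic and red nucleus tissue. Microglia, which serve as the immune cells of brain tissue, answer neuronal injury with antigen presentation and interferon-induced genes, and wheel running is a standard way to study how physical activity acts on the brain.

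No gene passed the threshold. With limma on log2(FPKM + 1), an adjusted p under 0.05 was reached by 0 of 15997 genes, which is 0% of those tested, and the smallest adjusted p was 0.753, shared by 1863 genes. At an unadjusted p under 0.05 there were 1047 genes (6.54%), of which 499 (3.12%) were higher and 548 (3.43%) lower in running mice. The median log2 fold change of all genes was −0.02, and 44.7% of genes had a value above 0. The values of the 2 groups did not overlap for 1020 genes that were higher (6.38%) and 1472 genes that were lower (9.20%). What follows therefore describes levels and counts, read against these shares, and no gene or list below is called changed. All fold changes are running minus vehicle differences of log2(FPKM + 1), a scale that understates the difference of genes with low values. The tissue is bulk, so fewer cells of a type and less RNA per cell cannot be told apart.

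The libraries differed in FPKM sum and in markers of the tissue they held. The FPKM of a library summed to between 318415.6 and 319431.1 in vehicle and between 331121.4 and 344048.5 in running mice, the mitochondrial genome took 29.8% to 31.8% of it, and between 13413 and 13817 genes reached 1 FPKM. Depth, read from the steps between low FPKM values, spanned a factor of 1.21 over the 6 libraries. Across genes, 2 libraries of a group correlated at 0.966 to 0.982 (Pearson, log2(FPKM + 1)), and 2 libraries of different groups at 0.961 to 0.979. The defining genes of dopaminergic neurons were uneven. Slc6a3, the dopamine transporter, was at 3.404, 1.41 and 10.8 FPKM in the vehicle libraries and at 0.149 and 10.6 FPKM in running libraries 1 and 3, and was listed at 0 in running library 2. Th, the rate-limiting enzyme of dopamine synthesis, was at 5.298, 2.97 and 15.6 FPKM in vehicle and at 2.66, 5.35 and 6.69 FPKM in running mice. The transporter was thus low in running libraries 1 and 2, while Th was present in all 6. Other dopaminergic markers were mixed. Sncg, gamma-synuclein, was highest in running library 2. Foxa1, Foxa2, Lmx1a and Pitx3, below the 0.5 FPKM limit, were highest of the running libraries in library 3. In running mice Foxa1 was at 0.0531, 0 and 0.385 FPKM and Foxa2 at 0.134, 0 and 0.295 FPKM. In vehicle they were at 0.264, 0.234 and 0.102 and at 0.514, 0.305 and 0.118 FPKM. The 20 tested markers include Slc6a3. They summed to 476, 447 and 374 FPKM in vehicle and to 406, 631 and 399 FPKM in running mice. Their mean log2(FPKM + 1) was 2.65, 2.23 and 2.40 in vehicle and 2.10, 2.56 and 2.73 in running mice.

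A trend with gene length ran through the comparison. Among protein-coding genes with up to 0.5 kb of exons, 81.4% of 43 were higher in running mice, with a median log2 fold change of 0.26. Between 1 and 2 kb, 69.4% of 1416 genes were higher (median 0.08), and beyond 8 kb only 21.7% of 2485 genes were (median −0.10). All 3 running libraries shared the slope, with medians of −0.14, −0.11 and −0.08 beyond 8 kb, against values from −0.02 to 0.02 in the vehicle libraries. MPTP library 2 had a steeper slope (0.27 between 0.5 and 1 kb and −0.21 beyond 8 kb), and MPTP library 3 had nearly none. Because lists of short genes move with this trend, a smooth curve over length was also removed from every library. Libraries were also scaled in 3 ways, to the same FPKM sum with or without mitochondrial genes and by quantile normalization. The plot of list medians shows each list before and after removal of the length trend, and the text gives the value after it for many lists. After removal, limma called 0 genes (smallest adjusted p 0.832), 469 genes (2.93%) were higher and 454 (2.84%) lower at an unadjusted p under 0.05, and 51.0% of genes were higher. The part of RNA quality or library preparation in this trend was not tested.

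**Figure D1:**
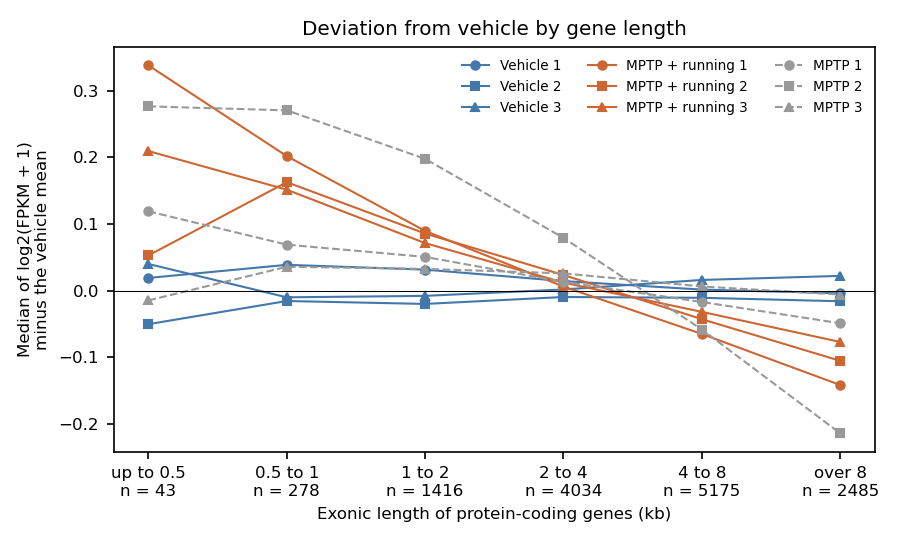
Median deviation of log2(FPKM + 1) from the vehicle mean (y axis, log2 units) for protein-coding genes in 6 classes of exonic length (x axis, kb, with the number of genes). Each line is 1 library, and the 3 running libraries fall from between 0.15 and 0.20 at 0.5 to 1 kb to between −0.14 and −0.08 beyond 8 kb.

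Promoters of interferon-induced genes, whose values stood apart between the groups in many cases, are shown here with the letters that interferon-stimulated response elements share. In this class of genes factors such as STAT2 and IRF9 bind a repeat of GAAA. The motif searched was TTTC, any 2 bases and TTTC again, which reads GAAA, any 2 bases and GAAA on the other strand. It was searched on both strands, with overlapping matches counted separately, in RefSeq promoters of build GRCm38.p6, each holding 250 bases before and 50 after an annotated start. It occurred in 3.44% of 32851 such promoters and in those of 1079 of 27025 genes (3.99%). Of the 36 interferon response genes tested, 26 had a promoter in the table and 17 of these (65.4%) held the motif, and of 18 antigen presentation genes 15 had one and 3 (20.0%) held it. The 250 bases before the start are given, 5′ to 3′ on the gene's strand, with the motif in capitals, for Oas1a and Bst2, which are among the interferon genes of smallest p, and for B2m, the antigen presentation gene of smallest p. The printed bases lie at chr5:120907526-120907775 on the minus strand for Oas1a, at chr8:71537473-71537722 on the minus strand for Bst2 and at chr2:122147437-122147686 on the plus strand for B2m.
Oas1a: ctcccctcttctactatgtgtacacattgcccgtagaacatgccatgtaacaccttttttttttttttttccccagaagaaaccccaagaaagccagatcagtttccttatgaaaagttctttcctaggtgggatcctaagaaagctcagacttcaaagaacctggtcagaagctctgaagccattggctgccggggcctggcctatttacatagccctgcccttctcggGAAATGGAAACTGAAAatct
Bst2: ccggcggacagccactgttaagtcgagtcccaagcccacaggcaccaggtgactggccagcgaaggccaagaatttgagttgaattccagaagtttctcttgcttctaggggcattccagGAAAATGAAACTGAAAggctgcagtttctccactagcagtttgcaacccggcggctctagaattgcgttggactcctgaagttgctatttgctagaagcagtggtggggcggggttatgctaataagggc
B2m: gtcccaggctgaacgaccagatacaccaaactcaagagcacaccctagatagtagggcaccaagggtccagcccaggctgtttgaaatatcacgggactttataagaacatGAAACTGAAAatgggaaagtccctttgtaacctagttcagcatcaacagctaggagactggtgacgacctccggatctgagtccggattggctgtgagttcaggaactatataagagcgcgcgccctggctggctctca
In Oas1a and Bst2 there were 2 overlapping matches, the last of them ending 4 bases before the start in Oas1a and 114 in Bst2, and in B2m there was 1 match, ending 129 bases before it. A match describes the letters and does not show that a factor binds there.

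Of the interferon response genes, 33 of 36 were higher in running than in vehicle mice, with a median log2 fold change of 0.22 beside −0.02 for all genes, and 0.22 after the length trend was removed. The groups did not overlap for 17 of them, all higher in running mice, and 4 were higher at an unadjusted p under 0.05. Beside these stand 6.38% and 3.12% of all genes, and 0 of the list passed in limma. The 36 genes summed to 78.3, 79.8 and 76.7 FPKM in vehicle and to 109, 106 and 114 FPKM in running mice, so that every running library stood above every vehicle library by a margin wider than the spread within either group. The mice given MPTP and not labelled as running, whose comparison uses the same vehicle libraries, were at 115, 227 and 305 FPKM.

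Ifi27, a mitochondrial protein strongly induced by type I interferon (chr12:103434211-103440239), was at 10.4, 10.1 and 11.3 FPKM in vehicle and at 15.5, 14.5 and 18.7 FPKM in running mice, a log2 fold change of 0.57 (SE 0.16, limma adjusted p = 0.753). Its lowest running library stood above its highest vehicle library. Oas1a, which senses double-stranded RNA, was at 0.403, 0.557 and 0.202 FPKM in vehicle and 0.918, 1.12 and 0.7801 FPKM in running mice (0.49, SE 0.16), low but separate. Bst2, or tetherin, which holds budding virions at the cell surface, was at 1.79, 2.43 and 2.47 FPKM in vehicle and 5.73, 3.52 and 5.27 FPKM in running mice (0.84, SE 0.32). Ifi27l2a was at 1.35, 2.05 and 1.21 against 4.15, 3.48 and 4.61 FPKM, a log2 fold change of 1.01. These genes had the smallest p of the list, and none of their values overlapped between the groups. Lgals3bp, a secreted glycoprotein, Ifit1, an RNA-binding antiviral protein, and Irf7, the transcription factor that amplifies the response, also had separate values, with log2 fold changes of 0.76, 0.65 and 0.38. The transcription factors Stat2 and Irf9, upstream of the response, were closer to vehicle, with Stat2 at 0.09 and Irf9 at 0.06, and their values overlapped. The members that were lower were Trim25 (−0.07), Ifit2 (−0.06) and Xaf1 (−0.05). In the MPTP mice, over the same vehicle libraries, the log2 fold changes were 1.17 for Ifi27, 0.74 for Oas1a and 2.14 for Bst2.

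Antigen presentation genes leaned the same way as the interferon list with smaller values. 15 of 18 were higher, and the median log2 fold change was 0.15 (0.16 after removal of the length trend). It was 0.09 with 12 higher when the libraries were scaled to the same FPKM sum. Higher in running mice, 3 had separate groups and 2 an unadjusted p under 0.05, beside 6.38% and 3.12% of all genes. B2m, the light chain of class I major histocompatibility molecules (chr2:122147686-122153083), was at 71.98, 79.3 and 62.9 FPKM in vehicle and 108, 106 and 91.9 FPKM in running mice (0.51, SE 0.16, limma adjusted p = 0.753). H2-K1, a class I heavy chain, was at 5.13, 5.73 and 5.77 and 6.41, 7.196 and 6.88 FPKM (0.26), and is uncertain because reads of the near-identical H2 genes can be split between them. Neither gene overlapped between groups, whereas Tapbp, the tapasin of the peptide-loading complex, did (3.74, 5.59 and 3.57 against 6.47, 5.81 and 5.55 FPKM). The class II genes H2-Aa, H2-Ab1 and H2-Eb1 overlapped. The invariant chain Cd74 was at 1.64, 2.72 and 1.16 FPKM in vehicle and 1.37, 2.59 and 1.39 FPKM in running mice.

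Microglial genes were close to vehicle apart from a few. Of the homeostatic markers, 13 of 20 were higher (median 0.04), and this sign turned without vehicle library 1 (−0.06) and when libraries were scaled to the same FPKM sum (−0.03). Ctss, the lysosomal protease cathepsin S, was at 36.7, 43.1 and 47.6 FPKM in vehicle and 57.9, 58.1 and 56.7 FPKM in running mice (0.44, SE 0.14). Of the activated markers, 12 of 15 were higher (median 0.08, and from 0.002 to 0.03 under the scalings with 8 to 10 higher). Of these, 4 had separate groups, beside 6.38% of all genes. Cd52, a small surface glycoprotein of immune cells whose exons overlap those of Crybg2, was at 0.643, 0.754 and 0.457 and 1.37, 1.16 and 1.15 FPKM (0.46). Lpl, the lipoprotein lipase, was at 0.7696, 0.9397 and 1.01 and 1.28, 1.31 and 2.46 FPKM, and Cd63, a tetraspanin of lysosomes, at 9.05, 9.49 and 10.3 and 11.1, 10.9 and 11.5 FPKM. These genes had separate groups, but Apoe, Cd68 and Spp1, which define the same state, did not. Macrophages of the brain's borders had only 5 tested markers of 10, all lower in value (median −0.21, and −0.11 after removal of the length trend), and in sum at 4.66, 5.26 and 5.31 FPKM in vehicle and 4.09, 3.04 and 3.48 FPKM in running mice. With no limit on low values, 3 of the 10 were higher and the median was −0.10.

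**Figure D2:**
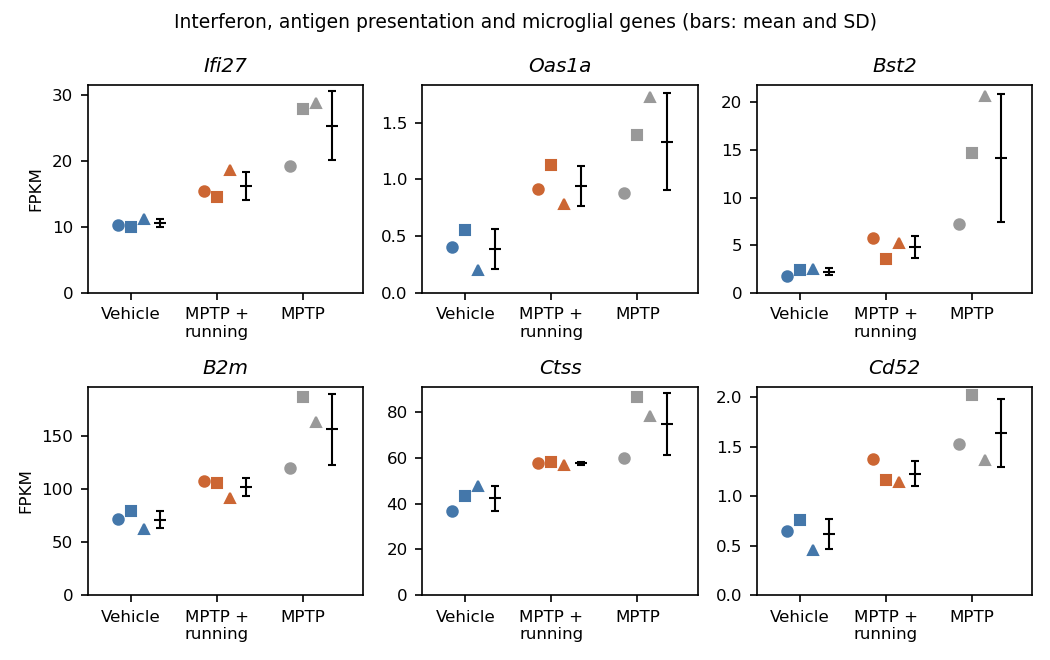
FPKM (y axis, linear, from 0) of Ifi27, Oas1a, Bst2, B2m, Ctss and Cd52 in each library of the 3 groups (circle, library 1; square, library 2; triangle, library 3), with the mean and SD of 3 libraries. These genes are among those of smallest p in their lists. All have separate groups, so in each panel the 3 running libraries lie above the 3 vehicle libraries.

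Complement and cytokine genes showed no common direction, with 5 of 13 and 4 of 9 higher (medians −0.04 and −0.01, the latter 0.04 under quantile normalization, and 0.01 and 0.02 after removal of the length trend). Cd59a, an inhibitor of the membrane attack complex, was at 3.81, 2.95 and 4.84 FPKM in vehicle and 6.97, 12.997 and 6.74 FPKM in running mice (0.99, SE 0.36), separate but spread by its high value in running library 2. Ccl12, a monocyte chemokine, was at 0.264, 0.559 and 0.222 against 1.06, 0.544 and 1.03 FPKM and overlapped. The chemokine that stood out was Cxcl12, described next.

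The 10 genes of smallest p in each direction, restricted to genes whose groups did not overlap, whose mean reached 1 FPKM and whose symbol is official, all had a limma adjusted p of 0.753 and did not pass. Mapre2, which encodes a protein that binds the growing ends of microtubules, had the smallest unadjusted p (0.000325). It was at 9.36, 8.57 and 10.6 FPKM in vehicle and 23.5, 24.1 and 24.6 FPKM in running mice, a mean of 24.1 ± 0.56 against 9.503 ± 1.01 (SD, n = 3 each), with a log2 fold change of 1.26 (SE 0.22). The MPTP libraries, at 8.22, 6.48 and 14.1 FPKM, lay around the vehicle level. The choice of genes required the running libraries to stand above the vehicle libraries and favoured tight groups. They also stood above all MPTP libraries.

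Of the other genes with higher values, Mrpl32, a protein of the mitochondrial ribosome, was at 1.41, 1.54 and 1.74 and 2.56, 3.07 and 2.74 FPKM in vehicle and running mice (0.56, SE 0.10). Timm10, a chaperone of the intermembrane space that guides imported proteins (chr2:84826997-84830213), was at 15.6, 16.4 and 16.5 and 23.97, 22.1 and 21.7 FPKM (0.46). Rpusd3, which modifies mitochondrial ribosomal RNA and whose exons overlap those of Gm44280, was at 1.14, 1.34 and 1.27 and 2.07, 2.28 and 1.96 FPKM (0.46). Their levels were low to moderate, and their groups were separate by the way the genes were chosen. Among the rest, Snrnp25, a protein of the minor spliceosome, was at 6.26, 6.11 and 6.15 and 9.798, 8.57 and 11.7 FPKM (0.61), Dpm3, which anchors the enzyme that makes dolichol-linked mannose, at 5.58, 5.01 and 4.89 and 7.89, 6.76 and 6.99 FPKM (0.41). Dynlrb1, a light chain of the dynein motor, was at 93.2, 90.4 and 85.8 and 126, 113 and 115 FPKM (0.39), the highest level in this set. Ppp1r3c, which directs protein phosphatase to glycogen, was at 14.96, 15.1 and 13.7 and 21.3, 23.2 and 17.3 FPKM (0.46). The nucleolar protein Knop1 and the adaptor Sdcbp (syntenin), at 0.42 and 0.45, complete the 10, and their exons overlap those of Vps35l and Nsmaf.

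Of the genes with lower values, Cxcl12, a chemokine made by vascular and stromal cells (chr6:117168535-117181367), was at 7.41, 6.78 and 7.21 FPKM in vehicle and 4.98, 5.002 and 4.65 FPKM in running mice (−0.47, SE 0.08, unadjusted p = 0.000348). Vtn, the matrix protein vitronectin that brain pericytes express (chr11:78499091-78502324), was at 28.6, 29.6 and 23.96 and 16.7, 19.4 and 17.7 FPKM (−0.58, SE 0.12). Bgn, the matrix proteoglycan biglycan, was at 2.35, 3.76 and 3.1005 and 1.58, 1.42 and 1.92 FPKM (−0.61). In these genes the running libraries lay below the lowest vehicle library, as the choice of genes required. Reck, a membrane-anchored inhibitor of matrix metalloproteinases, was at 3.19, 2.87 and 2.98 and 2.01, 1.97 and 2.22 FPKM (−0.39). S100a9, a subunit of the neutrophil protein calprotectin, was at 1.97, 4.61 and 4.59 and 1.51, 0.495 and 0.429 FPKM (−1.37). Cux2, a transcription factor of upper cortical layers, was at 5.12, 5.97 and 5.56 and 4.05, 3.88 and 3.79 FPKM (−0.42). Cux2 differed in sign from 13 of the 17 markers of cortical and hippocampal neurons described below. Prrc2c, a long RNA-binding protein of stress granules, Yeats2, a subunit of a histone acetyltransferase complex, and Metrn, a secreted glial factor whose exons overlap those of Gm26694, were at −0.61, −0.41 and −0.65. In all 3 the mice given MPTP and not labelled as running also had negative values over the same vehicle libraries (−0.52, −0.32 and −0.43), while for Cxcl12, Vtn and Bgn theirs were −0.12, −0.13 and −0.14.

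**Figure D3:**
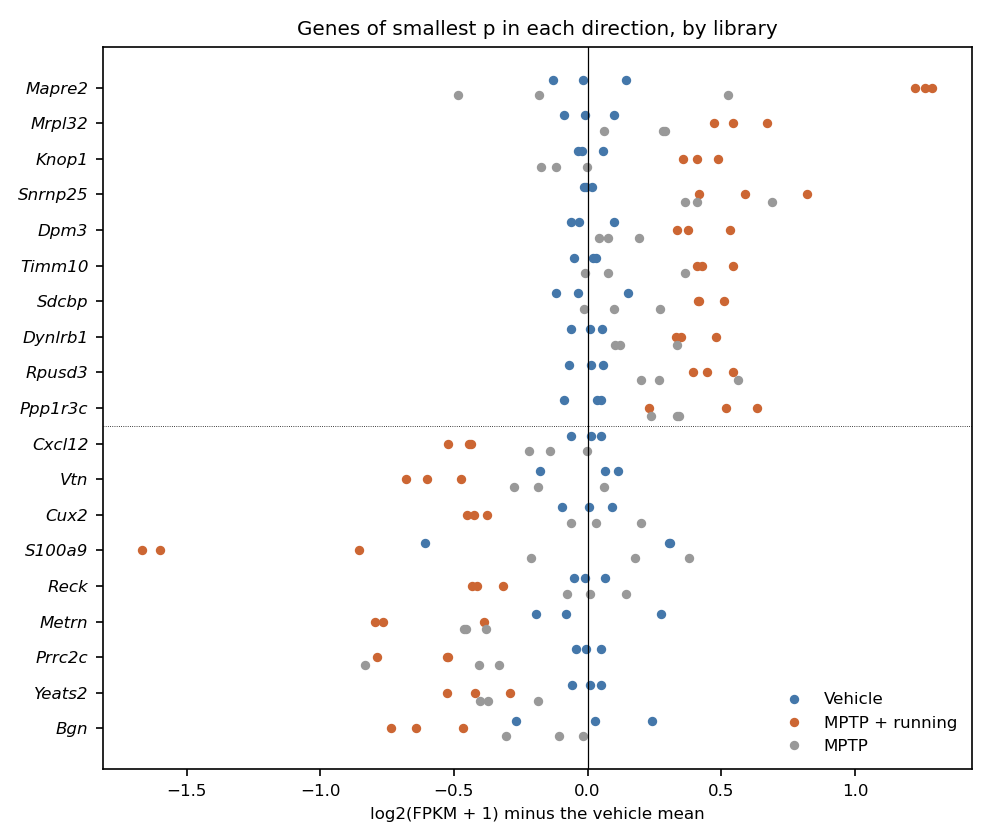
Difference of log2(FPKM + 1) from the vehicle mean (x axis, log2 units) in each library for the 10 genes of smallest p with higher values (top) and 9 of the 10 with lower values (bottom) in running mice. Each point is 1 library, and the running libraries of Mapre2 lie close to its log2 fold change of 1.26 while its MPTP libraries lie on both sides of 0.

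The genes of blood cells had the lowest median of the lists. All 8 tested markers of red blood cells and neutrophils, of 12 listed, were lower in running mice, with a median log2 fold change of −1.70. The 8 had separate groups and 7 had an unadjusted p under 0.05, beside 9.20% and 3.43% of all genes. They summed to 54.7, 66.3 and 444 FPKM in vehicle, 16.4, 11.6 and 46.1 FPKM in running and 36, 61 and 48.3 FPKM in MPTP mice. Vehicle library 3 stood far above the rest through the globins. Without it the median was −1.13, and still 0 of the 8 were higher. With no limit on low values 0 of the 12 were higher and the median was −0.79. Hbb-bs, an adult beta globin, was at 17.8, 21.03 and 157 FPKM in vehicle and 5.42, 3.95 and 16.9 FPKM in running mice, and Hba-a1, an alpha globin, at 13.999, 15.9 and 107 and 3.05, 2.24 and 10.9 FPKM. The globin pairs are near-identical, so their split is uncertain. The neutrophil genes did not share the high value of vehicle library 3 to that degree. S100a8, the partner of S100a9, was at 1.22, 1.12 and 0.704 FPKM in vehicle, at 0.337 and 0.128 FPKM in running libraries 1 and 2, and listed at 0 in running library 3 (log2 fold change −0.80, SE 0.15). Ngp, a granule protein, was at 0.589, 0.932 and 1.65 and 0.211, 0.1603 and 0.152 FPKM. In the MPTP mice S100a8 was at 1.16, 1.67 and 1.24 and Ngp at 0.543, 1.04 and 1.44 FPKM, near the vehicle level. The whole list was lower in MPTP mice too, with a median of −0.95 over the same vehicle libraries and 2 of the 8 higher. How much blood was left in the vessels of each tissue was not tested.

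Genes of the vessel wall had lower values by smaller amounts. Of the pericyte and smooth muscle markers 0 of 14 were higher, and the median log2 fold change was −0.28 (−0.24 after removal of the length trend). An unadjusted p under 0.05 was reached by 4 and separate groups by 6, beside 3.43% and 9.20% of all genes. Pdgfrb, the receptor that defines pericytes, was at 4.503, 5.08 and 4.83 FPKM in vehicle and 3.35, 3.82 and 3.81 FPKM in running mice (−0.32, SE 0.08). Myl9, a light chain of smooth muscle myosin, was at 13.5, 18.2 and 14.4 and 9.32, 11.4 and 11.3 FPKM (−0.48), and Myh11, its heavy chain, at 2.93, 3.83 and 1.88 and 1.12, 1.65 and 1.73 FPKM (−0.61). These contractile and receptor genes were separate, while Rgs5 and Higd1b, also markers of pericytes, were at −0.04 and −0.01 and overlapped.

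Endothelial markers were split. 17 of 22 were lower, 7 at an unadjusted p under 0.05 and with separate groups, beside 3.43% and 9.20% of all genes. The median was −0.15 (−0.12 after removal of the length trend). Without running library 2 it was −0.24. Cdh5, the cadherin of endothelial junctions, was at 4.26, 5.49 and 4.31 FPKM in vehicle and 3.204, 3.52 and 3.27 FPKM in running mice (−0.39, SE 0.11). Flt1, a receptor for vascular endothelial growth factor, was at 6.63, 6.56 and 6.29 and 4.65, 5.65 and 5.096 FPKM (−0.29), and Pecam1, an adhesion molecule, at 3.85, 4.28 and 3.49 and 2.33, 3.201 and 2.89 FPKM (−0.36). Tek, the angiopoietin receptor, and Vwf, the clotting factor stored in endothelium, were at −0.29 and −0.50. Among tight junction and transport genes, Cldn5, a claudin, was at 12.7, 15.2 and 16.3 against 13.2, 15.04 and 11.5 FPKM (−0.14) and Slc2a1, the glucose transporter of the barrier, at −0.12, near the median of the list but with overlap. Mfsd2a, a lipid transporter, was at 0.05 with overlap, and Ocln, occludin, was higher without overlap (1.99, 2.295 and 2.16 against 2.41, 2.59 and 3.41 FPKM).

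Fibroblast and collagen genes were lower in 18 of 21 cases (median −0.23, and −0.19 after removal of the length trend). Without overlap 4 were lower and 1 higher, beside 9.20% and 6.38% of all genes. Col1a1, a chain of type I collagen, was at 2.64, 3.901 and 1.52 FPKM in vehicle and 0.827, 1.08 and 1.24 FPKM in running mice (−0.80, SE 0.23), and Fn1, fibronectin, at 5.595, 7.97 and 5.94 and 3.84, 4.09 and 4.68 FPKM (−0.52, SE 0.13). Both were separate. The mice given MPTP and not labelled as running, over the same vehicle libraries, had list medians of 0.0021 for pericytes and smooth muscle, 0.05 for endothelial cells and 0.02 for fibroblasts and collagens.

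Genes of the respiratory chain and of ribosomes had higher values almost throughout. Of the nuclear-encoded genes of oxidative phosphorylation 51 of 52 were higher, all but Sdha (−0.01), with a median log2 fold change of 0.20. Of the 52 genes, 21 had separate groups and 14 an unadjusted p under 0.05, all of them higher, beside 6.38% and 3.12% of all genes. They summed to 3568, 3270.1 and 3137 FPKM in vehicle and 3899, 4009.7 and 3632 FPKM in running mice, with every running library above every vehicle library. Their exons are short, and after removal of the length trend 51 were still higher with a median of 0.16 and 11 at an unadjusted p under 0.05. When the libraries were scaled to the same FPKM sum the median was 0.12, and 46 to 48 genes were higher under the 3 scalings. Ndufa5, a subunit of complex I, was at 33.3, 36.3 and 34.2 FPKM in vehicle and 49.7, 46.6 and 41.6 FPKM in running mice (0.40, SE 0.11). Ndufa3 and Ndufa2, subunits of the same complex whose exons overlap those of Tfpt and Tmco6, were at 0.42 and 0.35. All 3 complex I genes were separate, and the MPTP mice had a list median of 0.14 over the same vehicle libraries.

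Transcripts of the mitochondrial genome were higher in 10 of 13 cases (median 0.10), 8 without overlap, beside 6.38% of all genes. mt-Nd3, a complex I subunit, was at 1123, 1092 and 1059.9 FPKM in vehicle and 1573, 1249 and 1303 FPKM in running mice. The list median was 0.05 after removal of the length trend and at most 0.03 under the 3 scalings. Its value of 0 under quantile normalization shows little, because that method gives genes of equal rank the same value in every library. Cytosolic ribosomal protein genes were higher in 47 of 47 cases, with a median of 0.20 (0.18 with 46 higher after removal of the length trend). Of these, 28 were without overlap and 13 at an unadjusted p under 0.05, beside 6.38% and 3.12% of all genes. Scaled to the same FPKM sum, the median was 0.12 with 43 higher. The MPTP mice had a ribosomal list median of 0.17 over the same vehicle libraries, with 45 of 47 higher. Rps7, of the small subunit, was at 75.5, 72.7 and 81.5 FPKM in vehicle and 112, 94.4 and 92.1 FPKM in running mice (0.37, SE 0.12), and Rpl15, of the large subunit, at 42.1, 41.04 and 41.8 and 51.1, 48.3 and 48.2 FPKM (0.24). Ribosomal protein genes have many pseudogene copies that can share reads, so single genes of this list are uncertain.

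**Figure D4:**
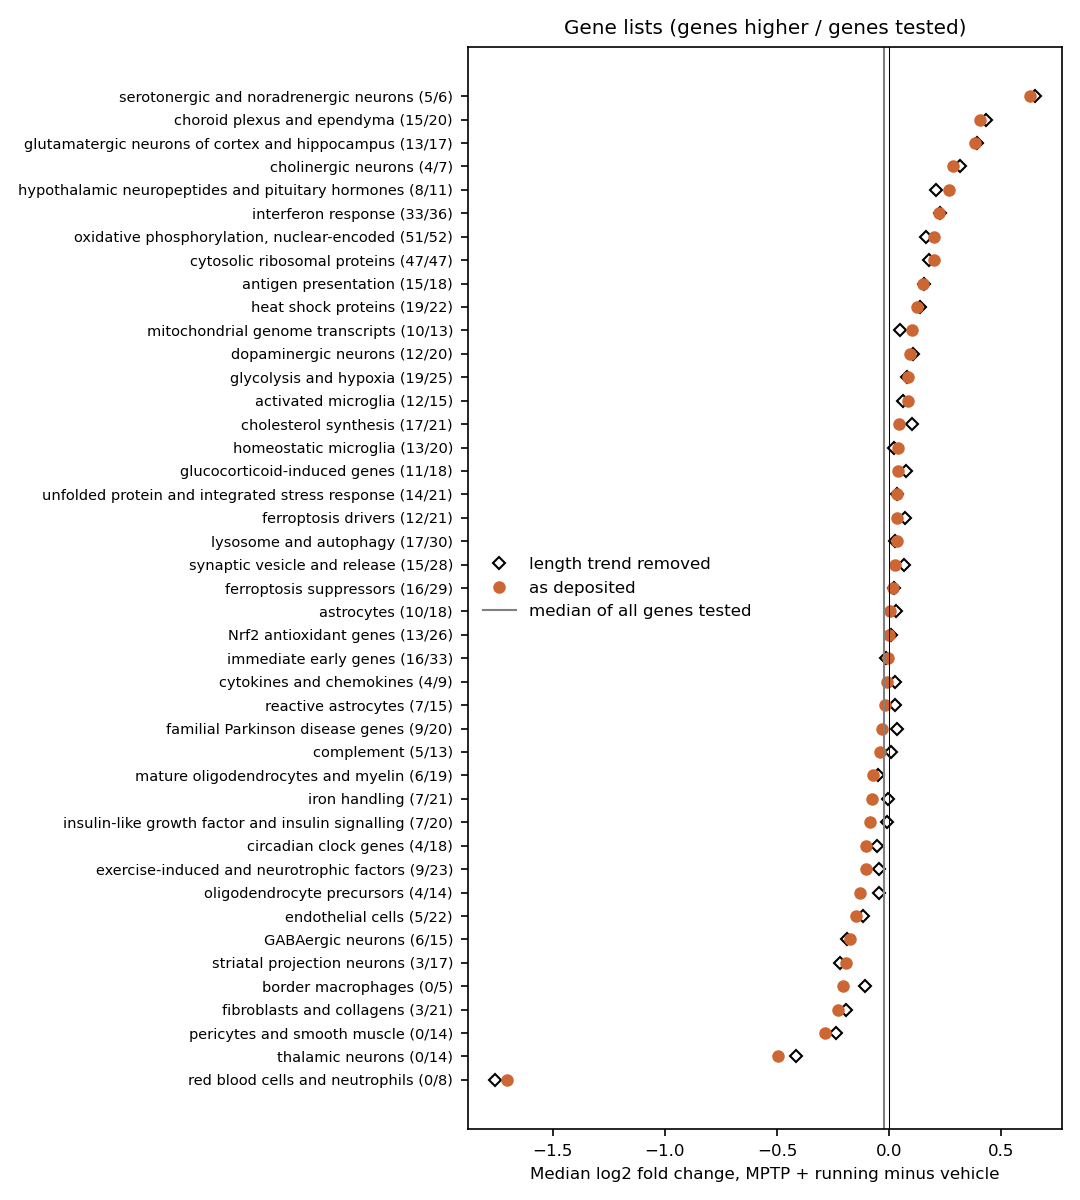
Median log2 fold change, running minus vehicle (x axis), of each of the 43 gene lists, with the number of genes higher and tested in brackets. Filled circles are the values as deposited, open diamonds those after the length trend was removed, and the grey line marks the median of all genes (−0.02). The blood cell list lies farthest to the left at −1.70.

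Markers of neighbouring brain regions varied from library to library. Choroid plexus and ependymal genes summed to 130.0, 119.9 and 439 FPKM in vehicle and to 1077, 108 and 961 FPKM in running mice, high in running libraries 1 and 3 and lowest of all in running library 2. Ttr, the transthyretin that choroid plexus secretes, was at 32.000, 41.9 and 328 FPKM in vehicle and 924, 18.5 and 769.8 FPKM in running mice. 15 of 20 genes were higher (median 0.41), but the median was 0.81 without running library 2 and 0.19 without running library 3. Only Enpp2, the enzyme autotaxin, which oligodendrocytes also express, had separate groups (70.99, 57.7 and 70.6 against 104, 72.4 and 124 FPKM, log2 fold change 0.56), beside 6.38% of all genes.

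Thalamic markers were lower in 14 of 14 cases (median −0.49). Of these, 1, Zfhx3, was without overlap and 0 at an unadjusted p under 0.05, beside 9.20% and 3.43% of all genes. They summed to 314, 119 and 217 FPKM in vehicle and 156, 148 and 136 FPKM in running mice, and the median was −0.15 without vehicle library 1 and −0.89 without vehicle library 2. Tcf7l2, a transcription factor of thalamic neurons, was at 17.4, 3.597 and 7.38 FPKM in vehicle and 4.92, 0.3903 and 5.76 FPKM in running mice. Markers of cortical and hippocampal glutamatergic neurons were higher in 13 of 17 cases (median 0.38, and −0.12 without vehicle library 1 and 0.75 without running library 2). Neurod6 was at 1.43, 23.5 and 16.7 FPKM in vehicle and 43.03, 8.93 and 53.96 FPKM in running mice, a range within each group wider than the difference between them. Striatal, GABAergic, hypothalamic and serotonergic or noradrenergic lists had medians of −0.19, −0.18, 0.27 and 0.63, and 0 of their genes had an unadjusted p under 0.05. With single libraries left out these medians ran from −0.63 to 0.02 in the striatal list, from −0.34 to −0.06 in the GABAergic list, from 0.02 to 0.47 in the hypothalamic list and from 0.13 to 1.104 in the serotonergic or noradrenergic list. The striatal value turned positive without running library 1, and the serotonergic one was lowest without vehicle library 3. Hcrt, the neuropeptide orexin of the lateral hypothalamus, was at 14.4 FPKM in vehicle library 3 and at most 0.219 FPKM in the other 5 libraries. Tph2, the serotonin-synthesizing enzyme, was at 18.2, 7.57 and 0.124 FPKM in vehicle and 13.3, 15.1 and 14.3 FPKM in running mice. The part of this variation in the differences of other lists was not tested.

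Dopaminergic markers did not separate the groups. 12 of 20 tested markers were higher (median 0.09), with 0 at an unadjusted p under 0.05, and the median turned to −0.05 without running library 3. Th had a log2 fold change of −0.41 (SE 0.66, limma adjusted p = 0.905) that became 0.17 without vehicle library 3. Slc6a3 was at −1.08 (SE 1.18, limma adjusted p = 0.848). Slc18a2, the transporter that loads monoamines into vesicles, was at 8.38, 4.73 and 3.62 FPKM in vehicle and 5.09, 9.64 and 7.67 FPKM in running mice, and Ddc, which makes dopamine from its precursor, at 9.34, 5.05 and 4.61 and 6.39, 8.197 and 10.2 FPKM. Both overlapped, with log2 fold changes of 0.39 and 0.37 and standard errors of 0.54 and 0.44. Sncg, gamma-synuclein, was at 30.4, 25.2 and 8.28 and 22.4, 76.9 and 25.1 FPKM, highest in running library 2. Slc5a7, the choline transporter of cholinergic neurons, had separate groups at 1.68, 1.05 and 0.992 against 1.901, 7.096 and 2.79 FPKM (1.01, SE 0.36), while Chat, which makes acetylcholine, overlapped (1.697, 0.728 and 0.512 against 0.721, 2.58 and 1.08 FPKM).

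**Figure D5:**
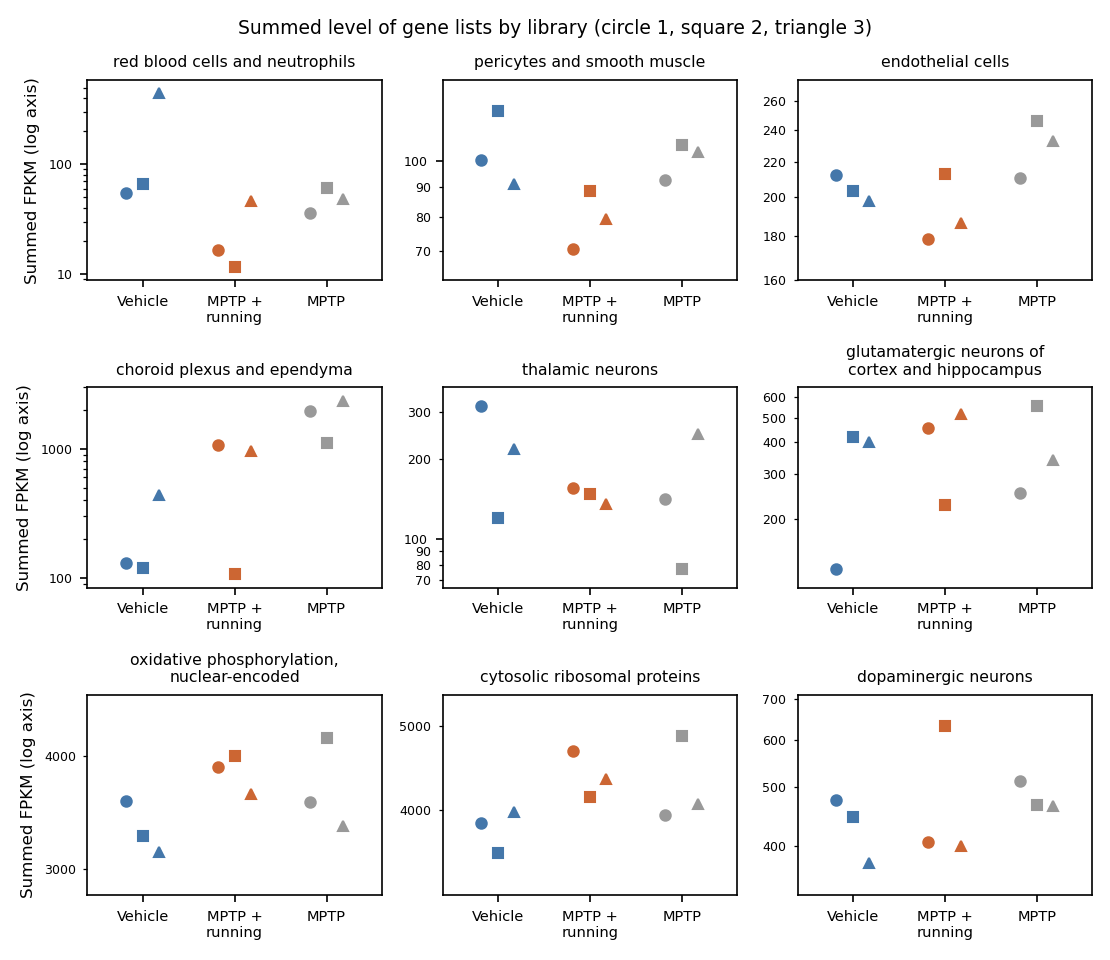
Summed FPKM of 9 gene lists (y axes, logarithmic) in each library of the 3 groups, with marker shapes for library numbers 1, 2 and 3. Blood cell genes are lower in all 3 running libraries than in the 3 vehicle libraries and peak in vehicle library 3. Choroid plexus genes are high in running libraries 1 and 3 and low in running library 2.

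The genes named in the title of the study concern ferroptosis, a form of cell death driven by iron and the peroxidation of lipids. Slc7a11, the cystine importer that feeds glutathione synthesis, was at 2.803, 3.71 and 3.96 FPKM in vehicle and 3.53, 2.21 and 3.03 FPKM in running mice (−0.20, SE 0.15, limma adjusted p = 0.7803), with overlap. Alox12, a lipoxygenase that oxidizes arachidonic acid, stood below the 0.5 FPKM limit, at 0.172, 0.196 and 0.187 FPKM in vehicle and 0.0756, 0.0593 and 0.105 FPKM in running mice. In a fit with no limit over 35406 genes its log2 fold change was −0.13 (SE 0.034, unadjusted p = 0.00427, limma adjusted p = 0.862). The Alox12 groups did not overlap, at levels of less than 0.2 FPKM. Gpx4, the enzyme that reduces lipid peroxides, was at 113, 109 and 102 FPKM in vehicle and 139, 153 and 119.8 FPKM in running mice (0.33, SE 0.12, limma adjusted p = 0.753), separate, and at 136, 157 and 121 FPKM in MPTP mice.

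The wider ferroptosis lists leaned neither way. Suppressors were higher in 16 of 29 cases (median 0.02) and drivers in 12 of 21 (median 0.03), and both medians were negative when the libraries were scaled to the same sum. Vdac3, a channel of the outer mitochondrial membrane, was at 19.4, 21.8 and 16.6 FPKM in vehicle and 23.8, 24.7 and 23.5 FPKM in running mice (0.31), and Bach1, a repressor of antioxidant genes, at 2.88, 3.197 and 3.18 and 2.41, 2.72 and 2.54 FPKM (−0.20). Of the iron handling genes 7 of 21 were higher (median −0.08), and 9 after removal of the length trend (median −0.01). Slc25a37, the mitochondrial iron importer mitoferrin, which red cell precursors express strongly, was at 6.19, 5.03 and 6.17 FPKM in vehicle and 4.52, 4.57 and 3.85 FPKM in running mice (−0.35). Bmp6, which signals iron stores, was at 2.1995, 2.701 and 2.84 and 1.92, 1.55 and 2.003 FPKM (−0.34), and Hfe, which acts in the same iron-sensing pathway, at 1.13, 1.22 and 1.33 and 1.37, 1.91 and 1.5998 FPKM (0.23). These iron genes had separate groups in both directions. Nrf2 target genes were evenly divided, 13 of 26 higher and 8 with libraries scaled to the same sum, led by Gstm5, a glutathione transferase, at 79.2, 67.04 and 70.3 against 102, 88.2 and 88.98 FPKM (0.36).

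Genes tied to exercise and growth factors had lower values in most cases, as did all genes tested, of which 44.7% were higher (median −0.02). Of the exercise-induced and neurotrophic factors 9 of 23 were higher (median −0.10, and −0.05 after removal of the length trend), and of the insulin-like growth factor and insulin genes 7 of 20 (medians −0.09 and −0.01). Igf1, insulin-like growth factor 1, was at 1.602, 1.1002 and 2.04 FPKM in vehicle and 1.11, 0.768 and 1.04 FPKM in running mice (−0.38, SE 0.14, limma adjusted p = 0.753), with overlap in 1 library. Its receptor Igf1r was at 5.31, 4.84 and 5.32 and 4.32, 4.02 and 3.89 FPKM (−0.28), and the binding protein Igfbp5 at 34.5, 39.2 and 38.5 and 32.8, 21.5 and 31.8 FPKM (−0.39). The receptor and the binding protein were separate, and the value of Igf1r, a long gene, was −0.15 after removal of the length trend. Cntf, a glial neurotrophic factor whose exons overlap those of Zfp91, was at 1.28, 0.97996 and 1.23 and 0.651, 0.797 and 0.787 FPKM (−0.31). Bdnf, the neurotrophin most studied in running, was at 2.45, 3.86 and 2.79 FPKM in vehicle and 5.08, 2.67 and 4.73 FPKM in running mice (0.34), with overlap. Immediate early genes, which neurons switch on when they fire, were higher in 16 of 33 cases (median −0.01, from −0.31 without vehicle library 1 to 0.14 without running library 2), with 0 at an unadjusted p under 0.05 and a sum of 158, 344 and 282 FPKM in vehicle and 371, 199 and 224 FPKM in running mice.

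Stress, metabolic and clock genes differed by small amounts. Heat shock proteins were higher in 19 of 22 cases (median 0.13, and 0.04 under quantile normalization). Hsp90aa1, a chaperone of signalling proteins, was at 261, 250.1 and 235 FPKM in vehicle and 286, 307 and 280.3 FPKM in running mice (0.23), and Hspa5, the chaperone of the endoplasmic reticulum, at 39.8, 39.6 and 36.5 and 48.9, 43.2 and 42.4 FPKM (0.21). Hsf1, the transcription factor that induces heat shock genes, was lower without overlap, at 3.07, 2.86 and 3.47 against 2.45, 2.48 and 2.504 FPKM (−0.25). The unfolded protein response had 14 of 21 genes higher (median 0.04, and −0.04 scaled to the same sum), and glucocorticoid-induced genes 11 of 18 (median 0.04, and −0.04 scaled to the same sum). Glycolysis and hypoxia genes were higher in 19 of 25 cases (median 0.08), or in 13 to 14 under the 3 scalings (median at most 0.01, and 0.01 without running library 2), among them Pgk1, a glycolytic kinase, at 163, 141 and 129 against 166, 174 and 167 FPKM. Cholesterol synthesis genes were higher in 17 of 21 (median 0.04, and −0.05 without running library 2 and −0.04 scaled to the same sum), with Mvd, a decarboxylase of the pathway, at 7.82, 7.51 and 8.01 against 9.43, 10.4 and 9.07 FPKM. Circadian clock genes were lower in 14 of 18 cases (median −0.10, −0.05 after removal of the length trend and −0.01 without running library 2). Per3, a repressor of the clock, was at 5.16, 5.25 and 5.49 FPKM in vehicle and 4.53, 4.21 and 4.51 FPKM in running mice (−0.22), and −0.13 after removal of the length trend.

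Astrocyte, oligodendrocyte and synaptic lists lay near 0. Astrocyte markers were higher in 10 of 18 cases, but in 5 to 6 under the 3 scalings, and reactive astrocyte genes in 7 of 15 (median −0.02, and 0.02 under quantile normalization and 0.02 after removal of the length trend). Gfap, the intermediate filament of astrocytes, was at 42.4, 68.9 and 55.4 FPKM in vehicle and 59.3, 89.6 and 79.9 FPKM in running mice (0.46, SE 0.21), and Serpina3n, a protease inhibitor of reactive astrocytes, at 6.54, 9.32 and 6.79 and 8.75, 12.02 and 13.2 FPKM (0.52, SE 0.16). Both overlapped by 1 library. Myelin genes were higher in 6 of 19 (median −0.07, from −0.30 without running library 2 to 0.11 without running library 1), and precursor genes in 4 of 14 (median −0.13, −0.04 after removal of the length trend and −0.02 without vehicle library 1). Synaptic vesicle genes were higher in 15 of 28 and lysosome and autophagy genes in 17 of 30 (medians 0.03 and 0.03), and both medians turned under the 3 scalings, to −0.06 and −0.05 with the same sum. Genes of familial Parkinson disease were higher in 9 of 20 cases (median −0.03), but in 13 after removal of the length trend (median 0.03). Vps35, a subunit of the retromer that sorts endosomal cargo, was at 19.4, 18.04 and 17.4 FPKM in vehicle and 22.3, 20.8 and 21.4 FPKM in running mice (0.22), Chchd2, a mitochondrial protein, at 52.1, 44.4 and 43.3 and 61.2, 59.7 and 56.2 FPKM (0.34). Park7, or DJ-1, a redox-sensitive protein, was at 23.8, 25.9 and 24.1 and 26.8, 29.5 and 31.6 FPKM (0.24). These familial disease genes, the 3 of smallest p in the list, had separate groups and a limma adjusted p of 0.753. Of the 20 genes, 4 were higher and 1 lower without overlap, beside 6.38% and 9.20% of all genes.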

How the data were processed

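The authors deposited 1 table of FPKM for 55335 genes in 9 libraries, and these values were used as deposited. Per the labels' protocols, mRNA was selected with magnetic beads and fragmented, and libraries were read on an Illumina NovaSeq6000. The submitters' processing notes name bcl2fastq, HTSeq, DESeq2 and the build GRCm38. How reads were aligned, which tool made the FPKM and whether strand was used is not given in the sources used here. Without strand, reads of a gene and of an overlapping one cannot be told apart. Genes, coordinates, exonic lengths and overlaps came from GENCODE M21 on GRCm38 (55154 genes matched, 181 did not).

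Genes whose mean over the 9 libraries reached 0.5 FPKM were tested on log2(FPKM + 1) with limma 3.58.1 in R 4.3.3, its variance prior following the mean. One fit held all 9 libraries (6 residual degrees of freedom, 2.68 from the prior). The p-values are two-sided, were adjusted over 15997 genes (Benjamini-Hochberg) and were read at 0.05. Comparisons with MPTP mice share the vehicle libraries. The code was tested on simulated data. The length trend was removed per library with a natural spline of 5 degrees of freedom on log2 exonic length (99.9% of tested genes had one), an alternative chosen after seeing the data. Relative depth was read from the steps between low FPKM of 19516 genes with a single transcript, and 37.9% to 39.8% of their low values came within 2% of a whole number of steps. Absolute depth is unknown. Figures were drawn with matplotlib 3.10.9 in Python 3.11.15, with tables handled in pandas 2.3.3.

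The genes compared and the 43 lists were chosen with earlier results of these data known. Named genes were the 12 largest changes per direction past the threshold, or, with fewer than 5, the 10 of smallest p per direction among genes with no overlap between groups, a mean over the 6 libraries of 1 FPKM or more and an official symbol. The 3 members of smallest p of each list, the title genes Slc7a11, Alox12 and Gpx4 and the dopaminergic genes Th, Slc6a3, Slc18a2 and Ddc were named too. Other list members in the text were chosen after their values were seen. Some genes that this rule names are not reported here. Alternatives changed the filter, pseudocount, scaling, variance model, weights, threshold, libraries used and replicate block.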

Additional observations from a re-analysis of the deposited data

How the results depend on the processing

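The count of genes past the threshold stayed at 0 under every change of filter, pseudocount, scaling, variance model, weights or threshold, with the MPTP libraries left out of the fit, and with the length trend removed. With single libraries left out it ranged from 0 to 2. Without running library 1 it was 1 (Tmem56, −2.07, limma adjusted p = 0.0031), without running library 2 it was 1 (Zbtb9, −1.61, 0.0246), without vehicle library 1 it was 2 (Pdxp, 2.68, 0.000802; Prkacb, 1.20, 0.00582) and without vehicle library 2 it was 2 (Gm28048, −3.16, 1.83e-05; B3gnt2, 1.91, 0.024). These 6 genes were picked for their values. The unadjusted counts (p under 0.05), 499 genes higher and 548 genes lower (47.7% higher), depended on scaling, with 203 and 1157 (14.9% higher) when libraries were scaled to the same sum, and 256 and 959 (21.1% higher) when scaled without mitochondrial genes. The other settings that moved either count by over 1.5 times were no filter (757 and 1109), a mean of at least 5 FPKM (358 and 145), array weights (823 and 873), and leaving out running library 1 (303 and 358), vehicle library 2 (317 and 491) or vehicle library 3 (323 and 328). Scaling to the same sum moved the median of all genes from −0.02 to −0.09. Over 23 refits the 142 named genes gave 3199 values, of which 4 changed sign, namely Chat at −0.021 without running library 2, Mal at 0.038 and Opalin at 0.034 without vehicle library 1, and Th at 0.17 without vehicle library 3. With single libraries left out, Chat ranged from −0.021 to 0.53, Mal from −0.33 to 0.038, Opalin from −0.37 to 0.034 and Th from −0.86 to 0.17. No named gene passed, and the lowest adjusted p among them was 0.0675 (Mapre2, without MPTP library 3). Of 43 lists, 21 kept the sign of their median in every refit, among them the interferon, antigen presentation, oxidative phosphorylation, ribosomal, blood cell, pericyte, endothelial and fibroblast lists, and 92 of 988 medians changed sign. With single libraries left out the median turned for 19 lists, among them the complement, cytokine, astrocyte, reactive astrocyte, Nrf2, ferroptosis, glucocorticoid, lysosome, synaptic vesicle and familial Parkinson disease lists. With the replicate block the count was 0 (481 genes higher and 604 genes lower at p under 0.05, unadjusted). Same-numbered libraries of the 2 groups shared little, with correlations of their deviations from the group means of −0.26, 0.0069 and 0.24, so the numbers were not taken to pair the libraries. The cause of these differences was not tested.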

Other observations

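Some genes of the lists have not yet been described. Atp6v1h, a subunit of the proton pump of lysosomes, was at 11.8, 12.4 and 10.8 FPKM in vehicle and 14.3, 14.96 and 13.2 FPKM in running mice, and Gabarap, which builds autophagosomes, at 55.4, 52.2 and 52.1 and 60.1, 65.4 and 59.5 FPKM, without overlap and with log2 fold changes of 0.26 and 0.21. Mcoln1, a calcium channel of lysosomes, was at 6.46, 7.54 and 7.3997 and 5.67, 6.56 and 6.12 FPKM (−0.19), with overlap. Atg5, needed for autophagosome formation, was at 9.71, 8.27 and 8.16 and 10.3, 10.3 and 10.1 FPKM (0.22), without overlap. Fkbp5, a chaperone that glucocorticoids induce, was at 2.65, 2.39 and 2.94 FPKM in vehicle and 3.13, 2.66 and 4.86 FPKM in running mice, and Crh, corticotropin-releasing hormone, at 1.23, 1.61 and 1.89 and 2.22, 12.4 and 1.596 FPKM, highest in running library 2.

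Dsp, desmoplakin, which granule cells of the dentate gyrus express, was at 0.0657, 0.0559 and 0.0828 FPKM in vehicle and 0.937, 0.0228 and 2.51 FPKM in running mice (0.84, SE 0.38), high in running libraries 1 and 3, the same libraries in which Ttr was high, and low in running library 2. None of these genes passed in limma.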
